A study of Mus musculus with 12 samples.

Results

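The transcripts described here come from 9 genes of the B lymphocyte lineage, namely Ms4a1, Cd79a, Cd79b, Pax5, Ebf1, Blnk, Vpreb3, Igll1 and Cd22, read in RNA from mouse bone marrow neutrophils. They are 9 of the 37310 genes in the count table and were chosen by their counts, which as a group were lower in libraries labelled Runx1KO. That choice used the difference between Runx1KO and Control libraries, so those differences are given as a description with no test, and the tests concern lipopolysaccharide (LPS) and other genes of the lineage. The cells came from C57BL/6 mice and were sorted for CD11b and Ly6G, without Siglec F or the antigen that Adgre1 encodes. They were then kept for 2 h with 100 ng/mL LPS, a bacterial product that Toll-like receptors sense, or with vehicle. The 4 groups of 3 libraries were Runx1KO with LPS, Control with LPS, Runx1KO with vehicle and Control with vehicle, named here by their labels. The design text describes the Control as LKS- cells, an abbreviation it does not spell out, from the pooled marrow of 1 Runx1f/f and 1 Runx1f/- mouse, the Runx1f/- mouse with 1 germline mutant allele, whereas the sample labels describe sorted neutrophils in all 4 groups. Which cells carry the deletion, the deleting Cre, the deleted exons and the age of the mice are not stated in any source used here.

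B lymphocytes form in the bone marrow beside the neutrophils, in steps set by transcription factors: Ebf1 and Pax5 switch on the genes of the lineage. Cells that have rearranged a heavy chain first display a pre-B cell receptor, in which the heavy chain pairs with a surrogate light chain made of VpreB and the Igll1 protein, and later an antigen receptor with a true light chain. Both receptors signal through Cd79a and Cd79b, and the adaptor Blnk carries the signal on. Runx1, the DNA-binding partner of Cbfb, is known to be needed early in this lineage.

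Libraries held 19023610 to 26225169 counts, and 253 to 1252 of these fell on the 9 genes. All levels below are in CPM, the counts of a gene per 1000000 counts of a library size corrected by trimmed mean of M values (TMM). Genes of different length are not ranked against each other. Neutrophil markers (10 genes, among them S100a8, S100a9 and Ly6g) summed to 141000 to 150000 CPM in Runx1KO LPS and 151000 to 179000 in Control LPS libraries. With vehicle they summed to 103000 to 135000 CPM in Runx1KO and 153000 to 162000 in Control libraries, and no marker was at 0. Every Runx1KO sum lay below every Control sum of its treatment. The log2 fold change of Runx1KO over Control was positive for 2 of the 10 markers with LPS and 1 with vehicle, and edgeR called none. Runx1 itself was counted over the whole gene and stood at 43.7 to 68.6 CPM in Runx1KO LPS against 26.1 to 50.9 CPM in Control LPS libraries, and at 60.5 to 75.4 CPM in Runx1KO vehicle against 36.8 to 56.2 CPM in Control vehicle libraries. A whole-gene count does not separate the deleted part, so it does not check the labels. In bulk RNA, fewer cells of a type and less RNA per cell cannot be told apart. The labels do not state whether the 3 libraries of a group are from different mice, and the p-values therefore cover the spread among these libraries, which may be technical.

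Start-site sequences were available for 7 of the 9 genes, and Ebf1 had 2 windows. They are shown because the genes were chosen as lower, as a group, in cells labelled as lacking a RUNX factor. Igll1 did not share that difference, with a log2 fold change of -0.04 with LPS and 0.19 with vehicle. The letter patterns searched TGTGGT (the core word bound by RUNX factors), CAGGTG (bound by E proteins) and CCCNNGGG (the core of the EBF1 site), each on both strands. TGTGGT was present in 3 of the 8 windows of these 7 genes (1 each of Ebf1, Igll1 and Vpreb3) and in 16.8% of all 32851 promoter windows of the same 300 bases. CAGGTG was present in 4 of the 8 windows (Blnk, Cd22, Cd79a and Igll1) and in 20.2% of all windows, and CCCNNGGG in 2 of the 8 (Cd22 and Igll1) and in 13.7% of all windows. The patterns do not overlap each other in these windows. The windows with TGTGGT follow, 5′ to 3′ on the strand of the gene, from 250 bases before to 50 after the start in RefSeq on GRCm38.p6, with every match to one of the 3 patterns in capitals. The words ACCACA and CACCTG are TGTGGT and CAGGTG read on the other strand. Vpreb3 lies at chr10:75948050-75948349 on the plus strand, the first Ebf1 window at chr11:44617850-44618149 on the plus strand and Igll1 at chr16:16863936-16864235 on the minus strand.
Vpreb3: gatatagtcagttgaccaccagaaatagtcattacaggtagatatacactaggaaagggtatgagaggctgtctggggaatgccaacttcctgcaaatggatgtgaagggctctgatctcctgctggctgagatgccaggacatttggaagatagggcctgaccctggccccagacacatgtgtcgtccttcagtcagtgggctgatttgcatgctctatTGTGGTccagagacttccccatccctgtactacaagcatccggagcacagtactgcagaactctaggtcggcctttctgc
Ebf1: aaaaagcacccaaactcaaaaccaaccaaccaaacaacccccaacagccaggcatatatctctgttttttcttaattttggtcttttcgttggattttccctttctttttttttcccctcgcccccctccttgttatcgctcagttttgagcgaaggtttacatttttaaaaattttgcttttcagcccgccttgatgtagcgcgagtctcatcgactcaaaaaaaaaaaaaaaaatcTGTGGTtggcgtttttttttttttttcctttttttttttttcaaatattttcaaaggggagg
Igll1: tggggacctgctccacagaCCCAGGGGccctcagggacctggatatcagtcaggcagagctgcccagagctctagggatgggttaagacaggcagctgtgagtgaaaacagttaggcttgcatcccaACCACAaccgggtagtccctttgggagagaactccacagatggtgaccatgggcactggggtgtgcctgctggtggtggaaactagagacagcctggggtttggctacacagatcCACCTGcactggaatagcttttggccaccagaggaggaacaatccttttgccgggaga
The TGTGGT word began 30 bases before the start of Vpreb3 and 12 before that of Ebf1, and in Igll1 it lay on the other strand, from 123 bases before the start. A match is a description of the letters and not evidence of binding, which was not measured.

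The summed level of the 9 genes was 13, 17.3 and 22.0 CPM in Runx1KO LPS libraries 1, 2 and 3, against 37.1, 21.9 and 58.9 CPM in Control LPS libraries. With vehicle the sums were 13.4, 11.2 and 15.2 CPM in Runx1KO, against 38.8, 18.7 and 44.7 CPM in Control libraries. All Runx1KO sums with vehicle lay below all Control sums, while with LPS the highest Runx1KO value (22.0) passed the lowest Control value (21.9). The log2 ratio of the mean sums, Runx1KO over Control, was -1.17 with LPS and -1.36 with vehicle. Control library 2 was the low one of its group: it had the lowest CPM of the 3 for 9 of 9 genes with LPS and 8 of 9 with vehicle, and library 3 the highest for 8 and 7. Set against the library of the same number, the log2 ratios were -1.51, -0.34 and -1.42 with LPS and -1.53, -0.74 and -1.56 with vehicle for numbers 1, 2 and 3. Without Control LPS library 3 the LPS ratio was -0.75 and without Control LPS library 2 it was -1.46.

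**Figure D1:**
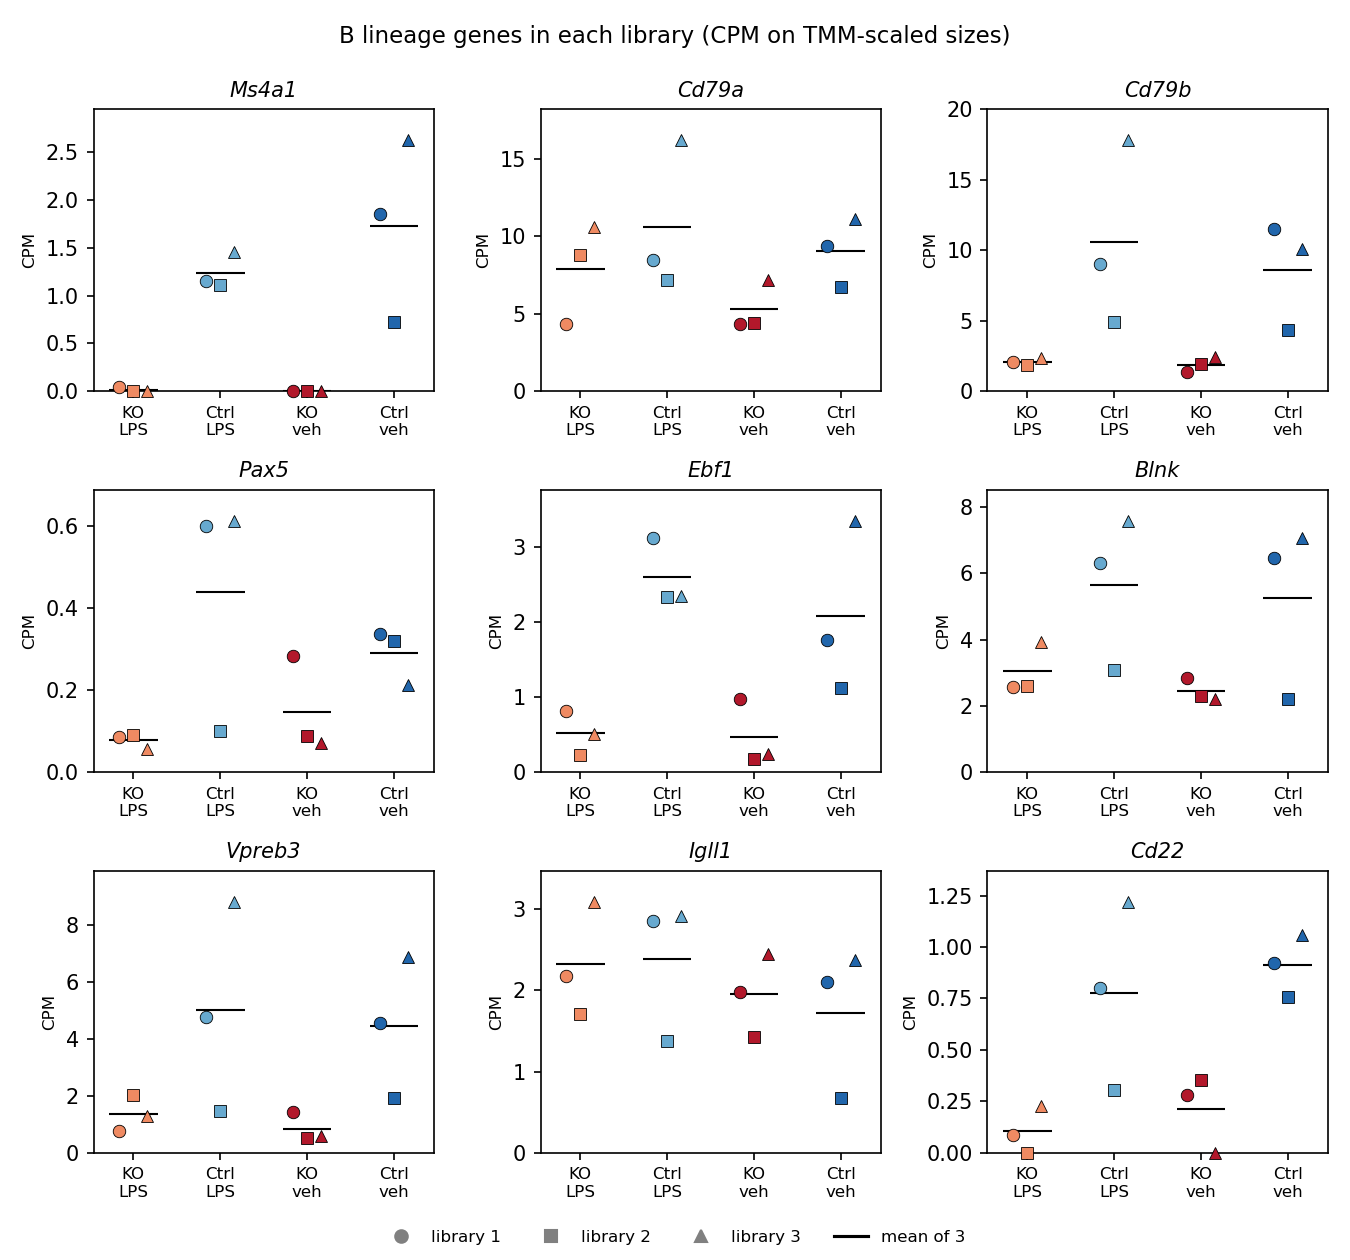
CPM (linear axes from 0) of the 9 B lineage genes in each of the 12 libraries, Runx1KO (KO) left of Control (Ctrl) with LPS and then with vehicle (veh); symbols mark library numbers 1, 2 and 3 and bars the mean of 3. Ms4a1 lies at 0 or near it in all 6 Runx1KO libraries, Igll1 is spread alike in the 4 groups, and the square of library 2 is the lowest Control point in most panels.

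The transcription factors come first. Ebf1, the factor that opens the B cell programme, stood at 0.813, 0.225 and 0.506 CPM in Runx1KO LPS libraries, against 3.11, 2.33 and 2.35 CPM in Control LPS libraries. With vehicle, Ebf1 stood at 0.971, 0.177 and 0.245 CPM in Runx1KO, against 1.76, 1.12 and 3.34 CPM in Control libraries. Every Runx1KO library was below every Control library of its treatment, and the log2 fold change of Runx1KO over Control was -2.32 (SE 0.69) with LPS and -2.15 (SE 0.68) with vehicle. Runx1KO vehicle library 1 held 24 of the 35 Ebf1 counts of its group, and without it the vehicle value was -3.25. Pax5, which fixes cells in the B lineage, was too low for the filter on low counts. It had 2, 2 and 1 counts in Runx1KO LPS against 12, 2 and 13 in Control LPS libraries, and 7, 2 and 2 counts in Runx1KO vehicle against 8, 8 and 5 in Control vehicle libraries. On the CPM scale the Pax5 groups did not overlap with LPS and did overlap with vehicle. The gap with LPS is one of library scaling only, since Runx1KO libraries 1 and 2 and Control library 2 each had 2 counts (0.0856, 0.0898 and 0.101 CPM). Exons of Pax5 overlap those of 5730488B01Rik and Gm12462 on the opposite strand, and without a known strand setting such reads cannot be told apart.

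The signalling chains of the antigen receptor did not move by the same amount. Cd79b stood at 2.10, 1.84 and 2.36 CPM in Runx1KO LPS libraries, against 9.02, 4.91 and 17.8 CPM in Control LPS libraries. With vehicle, Cd79b stood at 1.34, 1.91 and 2.42 CPM in Runx1KO, against 11.5, 4.32 and 10.1 CPM in Control libraries. The groups did not overlap in either treatment, and the log2 fold change was -2.33 (SE 0.50) with LPS and -2.19 (SE 0.49) with vehicle. Its partner Cd79a stood at 4.37, 8.80 and 10.6 CPM in Runx1KO LPS, against 8.47, 7.18 and 16.2 CPM in Control LPS libraries. With vehicle, Cd79a stood at 4.33, 4.43 and 7.18 CPM in Runx1KO, against 9.41, 6.71 and 11.1 CPM in Control libraries. These ranges overlapped, and the log2 fold change of Cd79a was -0.43 (SE 0.41) with LPS and -0.77 (SE 0.41) with vehicle. Without Control LPS library 3 the LPS value of Cd79a was 0.02. The number of Cd79b counts per Cd79a count, taken within each library, was 0.304 ± 0.153 in Runx1KO LPS against 0.951 ± 0.233 in Control LPS libraries, and 0.358 ± 0.0637 in Runx1KO vehicle against 0.923 ± 0.289 in Control vehicle libraries (SD, n = 3 each). The highest Runx1KO ratio was 0.480 and the lowest Control ratio 0.643. Both genes were chosen by the difference between Runx1KO and Control libraries, so this separation restates their unlike fold changes and is no further result.

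Blnk, the adaptor that links the receptor to its downstream enzymes, stood at 2.57, 2.61 and 3.94 CPM in Runx1KO LPS, against 6.31, 3.09 and 7.58 CPM in Control LPS libraries. With vehicle, Blnk stood at 2.83, 2.31 and 2.21 CPM in Runx1KO, against 6.47, 2.20 and 7.06 CPM in Control libraries. Control libraries 1 and 3 were above every Runx1KO library of their treatment and Control library 2 was not, and the log2 fold change was -0.90 (SE 0.46) with LPS and -1.10 (SE 0.46) with vehicle. Cd22, an inhibitory receptor of B cells that binds sialic acid, had 2, 0 and 4 counts in Runx1KO LPS against 16, 6 and 26 in Control LPS libraries, and 7, 8 and 0 counts in Runx1KO vehicle against 22, 19 and 25 in Control vehicle libraries. The Cd22 groups did not overlap in either treatment. Its log2 fold change was -2.91 (SE 1.10) with LPS and -2.11 (SE 1.00) with vehicle, and the LPS value was -4.00 without Runx1KO LPS library 3. Exons of Cd22 overlap those of Gm29439 on the opposite strand.

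Ms4a1, which encodes the surface protein CD20 of B cells past the earliest stages, was the gene closest to absence. It had 1, 0 and 0 counts in Runx1KO LPS libraries, against 23, 22 and 31 in Control LPS libraries. With vehicle, Ms4a1 had 0, 0 and 0 counts in Runx1KO, against 44, 18 and 62 in Control libraries. With vehicle this is at least 43.2-fold lower in Runx1KO, taking a floor of 3 counts over the group. With LPS the ratio of Runx1KO to Control was 0.0127 (95% counting interval 0.000316 to 0.0727), from 1 count against 76, which is 79.0-fold lower with an interval of 13.8 to 3160. Reads carry no molecular identifiers, so floors and intervals cover counting error only.

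Of the genes linked to the pre-B cell receptor, Vpreb3 had lower mean levels in Runx1KO than in Control and Igll1 had close ones. Vpreb3, a relative of VpreB found in B lineage cells, stood at 0.771, 2.02 and 1.29 CPM in Runx1KO LPS, against 4.76, 1.47 and 8.80 CPM in Control LPS libraries. With vehicle, Vpreb3 stood at 1.42, 0.532 and 0.596 CPM in Runx1KO, against 4.54, 1.92 and 6.85 CPM in Control libraries. The groups were separate with vehicle but not with LPS, where Control library 2 lay among the Runx1KO libraries, and the log2 fold change was -1.88 (SE 0.68) with LPS and -2.38 (SE 0.70) with vehicle. Over the 20 settings tried the Vpreb3 value ranged from -2.72 to -1.13 with LPS and from -2.96 to -1.68 with vehicle. Igll1, which encodes a part of the surrogate light chain, stood at 2.18, 1.71 and 3.09 CPM in Runx1KO LPS, against 2.86, 1.37 and 2.92 CPM in Control LPS libraries. With vehicle, Igll1 stood at 1.98, 1.42 and 2.45 CPM in Runx1KO, against 2.10, 0.679 and 2.37 CPM in Control libraries. The ranges overlapped in both treatments and the log2 fold change was -0.04 (SE 0.49) with LPS and 0.19 (SE 0.49) with vehicle (positive in 5 of 20 settings tried with LPS and in 17 of 20 with vehicle). Igll1 made up 13.6 ± 3.49% of the counts of the 9 genes in Runx1KO LPS against 6.30 ± 1.38% in Control LPS libraries, and 14.5 ± 1.81% in Runx1KO vehicle against 4.78 ± 1.00% in Control vehicle libraries (SD, n = 3 each). The lowest Runx1KO share was 9.87% and the highest Control share 7.70%. The 9 genes were picked as lower in Runx1KO, so a gene with a level count takes a larger share of their sum. The separation of the shares follows from that choice and is no further result.

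**Figure D2:**
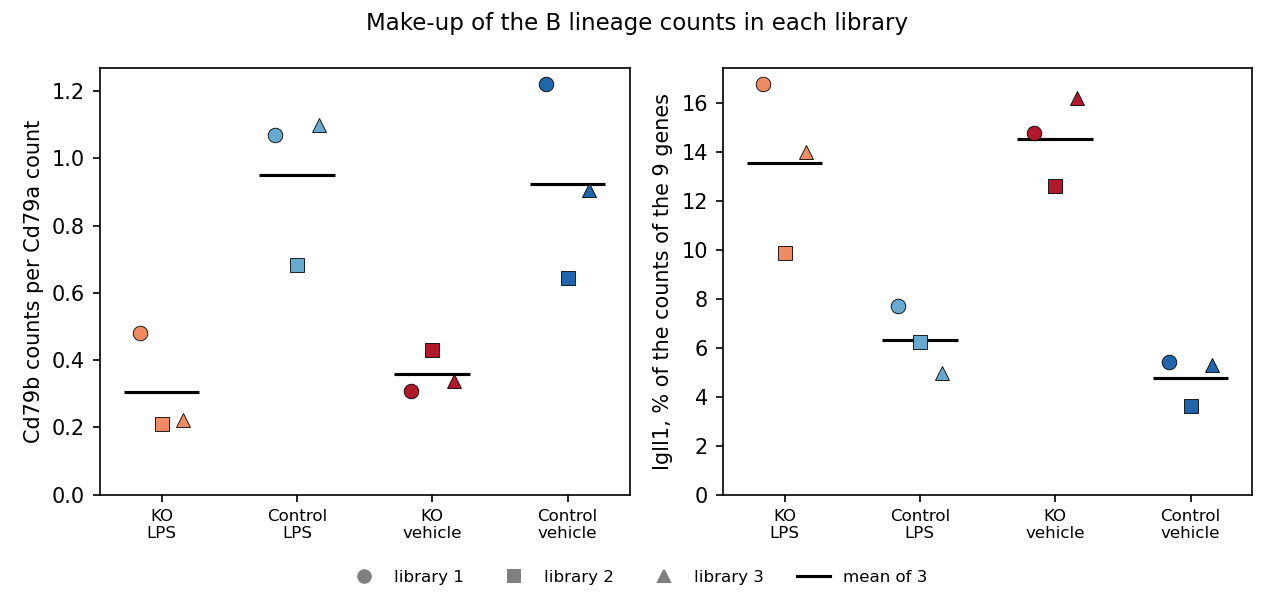
Cd79b counts per Cd79a count (left) and the percentage of the counts of the 9 genes that fell on Igll1 (right) in each library, both from 0, with Runx1KO (KO) left of Control and bars at the mean of 3. All 6 Runx1KO libraries lie at 0.480 or below on the left, where the Control libraries start at 0.643, and at 9.87% or above on the right, where the Control libraries end at 7.70%. The separation on the right follows from the choice of the 9 genes as lower in Runx1KO. The ratio on the left is of genes chosen in the same way and is a description.

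Of the 9 genes, 5 had all Runx1KO libraries below all Control libraries with LPS (Ms4a1, Cd79b, Pax5, Ebf1 and Cd22), 4 of them among the 8 genes that passed the filter, where 6.76% of all 12917 tested genes did. With vehicle it was 5 of the 9 (Ms4a1, Cd79b, Ebf1, Vpreb3 and Cd22), where 7.82% of all tested genes did. The opposite, every Runx1KO library above every Control library, held for 0 of the 9 in each treatment, beside 6.51% of all tested genes with LPS and 5.42% with vehicle. The genes were picked for this direction. Ms4a1, Cd22 and Ebf1 also passed the filter on low counts only through Control libraries, so these counts are a description. Pax5 was separate with LPS only through library scaling, since its lowest Control count equalled its highest Runx1KO count. The median log2 fold change of the 8 genes was -2.10 with LPS and -2.13 with vehicle, also with Ms4a1 at its count ratio or bound, beside 0.03 and 0.00 for all tested genes.

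**Figure D3:**
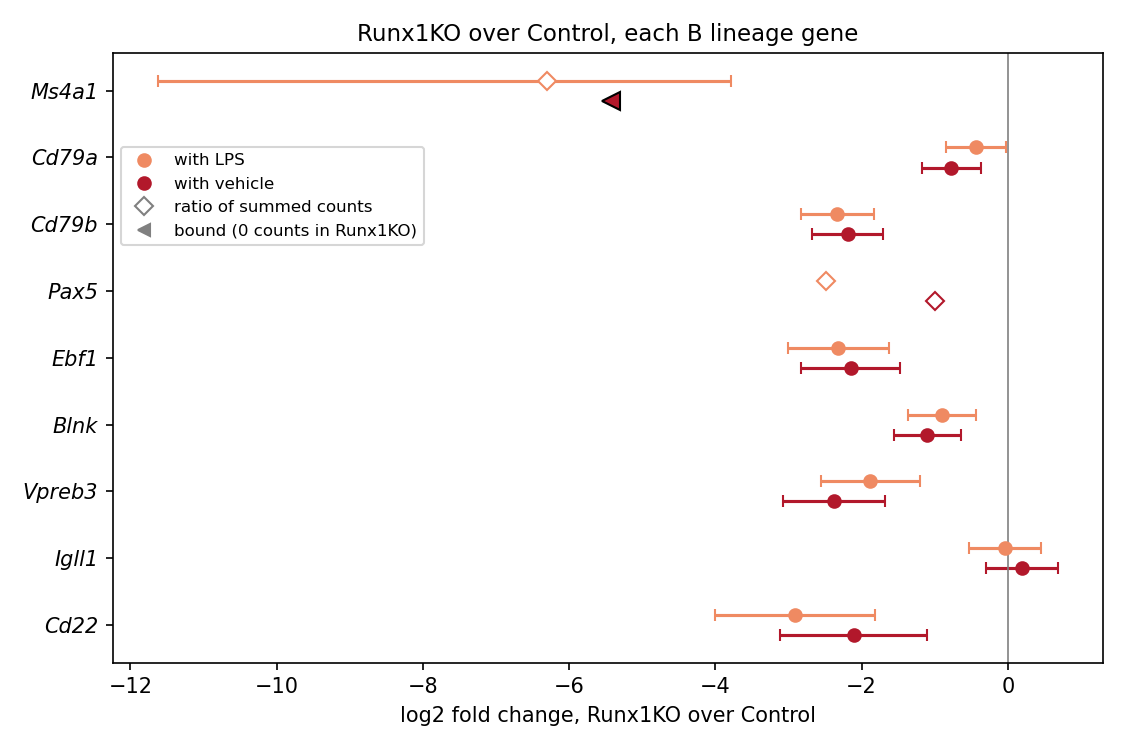
Log2 fold change of Runx1KO over Control (horizontal axis) for each gene with LPS (orange) and with vehicle (red); filled circles are fitted values with SE, open diamonds ratios of summed counts (Ms4a1 with a 95% counting interval, Pax5 without one) and the triangle the bound for Ms4a1 at 0 counts. Igll1 sits at -0.04 with LPS and 0.19 with vehicle, Cd79a and Blnk between -1.10 and -0.43, and Cd79b, Ebf1, Vpreb3 and Cd22 at -1.88 or below.

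The response to LPS was not used to choose the genes and was tested with edgeR's quasi-likelihood test, with Benjamini-Hochberg adjustment over all 12917 genes. None of the 8 tested genes passed an adjusted p of 0.05 in Runx1KO or in Control cells, nor did the difference between these responses pass for any of them. The background was the same, with 0% of all genes called in each of the 3 comparisons. At an unadjusted p under 0.05 the count was also 0 of 8 in each, where 5.23% of all genes passed in Runx1KO, 0.604% in Control and 0.596% for the difference. DESeq2 also called 0 of the 8 in each. The lowest adjusted p among the 8 genes was 0.879 in Runx1KO cells, for Cd79a. No gene of the 9 had separate LPS and vehicle libraries in either genotype, where 3.51% of all tested genes had every Runx1KO LPS library above every Runx1KO vehicle library and 3.20% below, and 2.84% and 2.32% in Control.

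Cd79a was at 7.91 ± 3.20 CPM with LPS and 5.32 ± 1.62 CPM with vehicle in Runx1KO cells, a log2 fold change of 0.57 (SE 0.41), and at 10.6 ± 4.87 and 9.08 ± 2.22 CPM in Control cells, a log2 fold change of 0.23 (SE 0.41). Vpreb3 was at 1.36 ± 0.628 CPM with LPS and 0.848 ± 0.493 CPM with vehicle in Runx1KO cells (log2 fold change 0.68, SE 0.69), and at 5.01 ± 3.67 and 4.44 ± 2.47 CPM in Control cells (0.18, SE 0.65). In each case the LPS and vehicle libraries overlapped. For Cd79b the log2 fold change of LPS over vehicle was 0.15 (SE 0.49) in Runx1KO and 0.30 (SE 0.47) in Control cells, and for Ebf1 it was 0.15 (SE 0.69) and 0.32 (SE 0.63). For Blnk it was 0.31 (SE 0.46) in Runx1KO and 0.11 (SE 0.45) in Control cells, and for Igll1 0.25 (SE 0.49) and 0.47 (SE 0.49). Cd22 had a log2 fold change of -1.04 (SE 1.14) in Runx1KO, from 6 counts with LPS and 15 with vehicle, and -0.23 (SE 0.92) in Control cells. Ms4a1 had -0.48 (SE 0.61) in Control cells and no fold in Runx1KO, where both groups were under the floor of 3 counts. Pax5, untested, had 5 counts with LPS and 11 with vehicle in Runx1KO, and 27 and 21 in Control cells.

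Leaving out Ms4a1, 6 of 7 values were positive in Runx1KO and 6 of 7 in Control. The Control count was 2 of 7 without Control LPS library 3 and 3 of 7 without Control vehicle library 2, and the Runx1KO count was 5 or 6 of 7 without any one Runx1KO library. Under scaling by library size alone the median of all genes moved to -0.28 in Runx1KO and -0.14 in Control, beside 0.03 and -0.02 with TMM, and 2 of 7 and 5 of 7 were then positive; that scaling shifts all genes alike. The difference of the responses, Runx1KO minus Control, ran from -0.81 (SE 1.44) for Cd22 to 0.50 (SE 0.94) for Vpreb3 among those 7 genes. Changes of the size of these fitted values were not detectable at this depth and spread, and a missed threshold does not show equal levels.

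**Figure D4:**
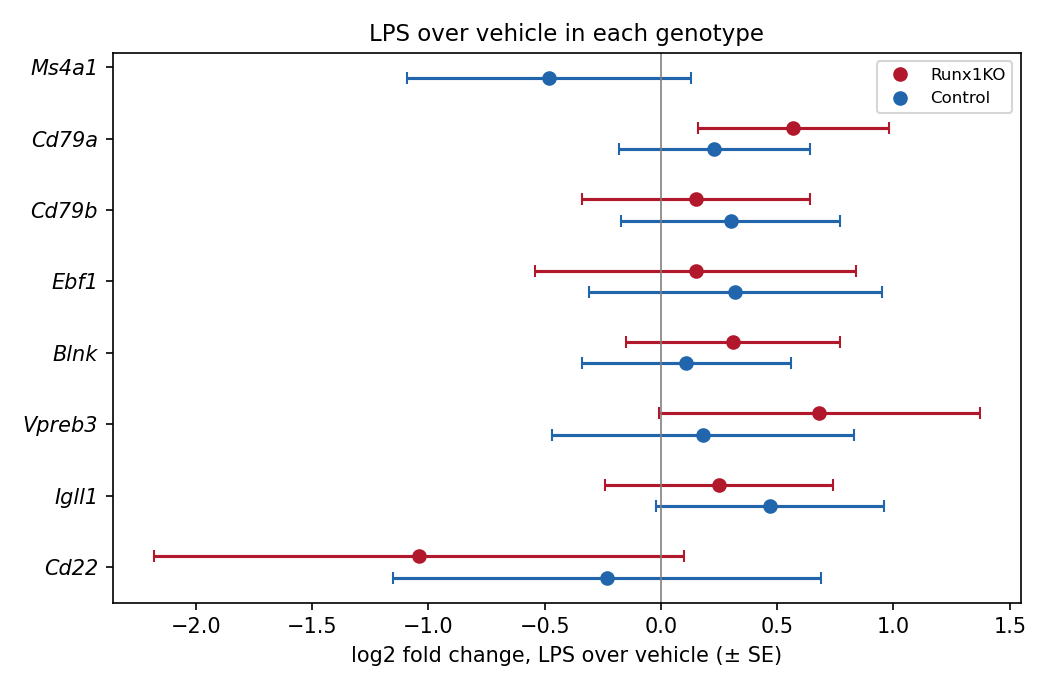
Log2 fold change of LPS over vehicle with its SE for the 8 tested genes in Runx1KO (red) and Control (blue) cells; Ms4a1 has no Runx1KO point because both groups were under 3 counts. Fitted values lie between -1.04 and 0.68, and no gene passed an adjusted p of 0.05.

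Beyond the 9 genes, 79 further genes of the B lineage were listed in 6 groups, of which 75 were matched in the table and 70 were tested. The lists were drawn up with earlier results of these data known, so their calls, shares and medians are a description and no independent support. In Runx1KO against Control cells with LPS, 5 were called lower and 3 higher, beside 0.573% and 0.348% of all genes (0.921% in either direction). With vehicle 7 were called lower and 2 higher, beside 0.604% and 0.348% of all genes (0.952% in either direction), and 7 genes were called in both treatments. Among those called lower in both, Cd72, Ikzf3, Fcmr and Fcrla passed the filter on low counts only through Control libraries. The counts called lower are thus partly set by the filter. The median log2 fold change of the 70 was -0.45 in each treatment, beside 0.03 and 0.00 for all genes. With the library number as a block, 13 were called lower and 3 higher in each treatment, while over all genes the calls were 185 lower and 117 higher with LPS and 201 and 114 with vehicle, against 74 and 45 with LPS and 78 and 45 with vehicle without the block. Leaving out 1 library at a time gave 1 to 5 called lower and 1 to 3 higher with LPS, and 2 to 8 lower and 1 to 2 higher with vehicle. With LPS the lower count fell to 2 or fewer without any one of the 3 Runx1KO LPS libraries, Control LPS libraries 1 and 3, the 3 Control vehicle libraries or Runx1KO vehicle library 1, and was 3 without Control LPS library 2. With vehicle it fell to 2 or 3 without any one of the 3 Runx1KO vehicle libraries or Control vehicle libraries 1 and 3. The higher count fell to 1 with LPS without Runx1KO LPS library 2, Control vehicle library 1 or any one of the 3 Control LPS libraries. With vehicle it fell to 1 without any one of the 6 vehicle libraries, Runx1KO LPS library 2 or Control LPS libraries 1 and 2.

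Receptor signalling (17 tested) had 1 gene called lower with LPS and 2 with vehicle, and none higher. Cd72, an inhibitory co-receptor of B cells, stood at 0.385, 0.898 and 0.337 CPM in Runx1KO LPS against 6.01, 3.04 and 8.24 CPM in Control LPS libraries, and at 0.283, 0.222 and 0.210 CPM in Runx1KO vehicle against 5.46, 2.88 and 5.16 CPM in Control vehicle libraries. Its groups were far apart in both treatments. By edgeR the log2 fold change of Cd72 was -3.39 (SE 0.51, adjusted p = 0.00904) with LPS and -4.21 (SE 0.54, adjusted p = 0.00466) with vehicle, and it stayed called in each of the 12 fits that left out 1 library. Cd72 passed the filter on low counts only through Control libraries, so its calls, also those with 1 library left out, are a description. Exons of Cd72 overlap those of Tesk1 on the opposite strand.

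Transcription factors (14 tested) had 2 genes called lower and 2 higher with LPS, and 3 lower and 1 higher with vehicle. Ikzf3, which encodes Aiolos, stood at 0.214, 0.584 and 0.731 CPM in Runx1KO LPS against 4.01, 2.53 and 3.86 CPM in Control LPS libraries (edgeR log2 fold change -2.77, SE 0.54, adjusted p = 0.0390). With vehicle, Ikzf3 stood at 0.243, 0.0443 and 0.210 CPM in Runx1KO against 3.44, 2.44 and 3.98 CPM in Control libraries (-4.24, SE 0.60, adjusted p = 0.00612). Spib, an Ets family factor of B cells and plasmacytoid dendritic cells, was also lower, with an edgeR log2 fold change of -3.11 (SE 0.63, adjusted p = 0.0436) with LPS and -3.32 (SE 0.64, adjusted p = 0.0331) with vehicle. The third factor lower with vehicle was Ets1, named after its values were seen, with a log2 fold change of -2.25 (SE 0.46, edgeR adjusted p = 0.0411), while with LPS it was -1.95 (SE 0.45, edgeR adjusted p = 0.0775) and passed with the library number as a block. Mean levels of Ets1 were 33.8 CPM in Runx1KO LPS against 131 CPM in Control LPS, and 30.8 CPM in Runx1KO vehicle against 147 CPM in Control vehicle libraries. Leaving out 1 library, its vehicle call held only without Runx1KO LPS library 1 or 3. Calls of Ikzf3 held in 2 of the 12 fits that left out 1 library with LPS and in 12 with vehicle. Those of Spib held in 2 with LPS and 5 with vehicle. Ikzf3 passed the filter on low counts only through Control libraries, so its calls are a description.

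The direction was opposite for Foxo1, a factor needed for early B cell development that many other cells express as well. It stood at 34.4, 21.4 and 14.1 CPM in Runx1KO LPS against 3.36, 4.45 and 4.09 CPM in Control LPS libraries, and at 30.5, 29.0 and 31.4 CPM in Runx1KO vehicle against 3.32, 4.83 and 5.12 CPM in Control vehicle libraries. Every Runx1KO library was above every Control library. By edgeR the log2 fold change of Foxo1 was 2.55 (SE 0.33, adjusted p = 0.00518) with LPS and 2.77 (SE 0.33, adjusted p = 0.00331) with vehicle, called in each of the 12 fits that left out 1 library. Bcl11a, a factor of early lymphoid cells, was higher with LPS (edgeR adjusted p = 0.0497, log2 fold change 1.55, SE 0.32) and missed the threshold with vehicle (1.32, SE 0.33, edgeR adjusted p = 0.0971). Its LPS call held in 2 of the 12 fits that left out 1 library. Exons of Foxo1 overlap those of Gm20402, and exons of Bcl11a those of 4930538E20Rik, on the opposite strand.

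Surface and antigen presentation genes (17 tested) had 2 called lower and 1 higher in each treatment. Fcmr, the receptor for the constant part of IgM, had 3 counts in Runx1KO LPS against 93 in Control LPS libraries, a ratio of 0.0310 (95% counting interval 0.00628 to 0.0935, edgeR adjusted p = 0.0412). With vehicle, Fcmr had 2 counts in Runx1KO against 110 in Control libraries, a ratio of 0.0174 (0.00208 to 0.0643, edgeR adjusted p = 0.0232). Fcrla, an Fc receptor-like protein of B cells, had a log2 fold change of -3.88 (SE 0.70, edgeR adjusted p = 0.0242) with LPS and -3.58 (SE 0.67, edgeR adjusted p = 0.0281) with vehicle. Leaving out 1 library, the calls of Fcmr held in 2 of 12 fits with LPS and 8 with vehicle, and those of Fcrla in 7 in each treatment. Both genes reached the level of the filter in Control libraries only, so their calls are a description. Ralgps2, an exchange factor for Ral GTPases, was higher, at 2.11 (SE 0.40, edgeR adjusted p = 0.0315) with LPS and 1.99 (SE 0.39, edgeR adjusted p = 0.0361) with vehicle. The call of Ralgps2 held in 6 and 3 of the 12 fits that left out 1 library. Cd74, the chain that escorts class II molecules in all antigen-presenting cells, stood at 17.5, 63.9 and 283 CPM in Runx1KO LPS against 73.5, 51.7 and 136 CPM in Control LPS libraries, and at 37.8, 50.2 and 26.3 CPM in Runx1KO vehicle against 70.3, 45.6 and 44.7 CPM in Control vehicle libraries. Its ranges overlapped, with adjusted p = 0.917 with LPS and 1.00 with vehicle by edgeR.

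Among early B cell genes (10 tested), immunoglobulin constant genes (7 tested) and plasma cell genes (5 tested), edgeR called 0 in either direction in both treatments. At an unadjusted p under 0.05, 1 early gene passed in each treatment (lower with LPS, higher with vehicle), 2 immunoglobulin genes were lower in each and 0 plasma cell genes passed, where 10.1% of all genes passed with LPS and 7.79% with vehicle. Ighm, the IgM heavy chain, stood at 119, 115 and 63.9 CPM in Runx1KO LPS against 111, 43.2 and 141 CPM in Control LPS libraries, and at 79.3, 125 and 105 CPM in Runx1KO vehicle against 102, 56.2 and 115 CPM in Control vehicle libraries. The groups overlapped, and the log2 fold change of Ighm was 0.01 (edgeR adjusted p = 0.997) with LPS and 0.18 (edgeR adjusted p = 1.00) with vehicle. Igkc, the kappa light chain, had a log2 fold change of -0.43 in each treatment (edgeR adjusted p = 0.936 with LPS and 1.00 with vehicle). The summed immunoglobulin genes were at 152 to 234 CPM in Runx1KO LPS against 85.1 to 431 CPM in Control LPS libraries, and at 162 to 220 CPM in Runx1KO vehicle against 109 to 342 CPM in Control vehicle libraries. Ighm and Igkc held most of these sums, which can hide the levels of other genes. Mean Iglc2 was 0.776 CPM in Runx1KO against 6.79 in Control with LPS, and 0.593 against 5.1 with vehicle, without overlap. Runx1KO libraries were also all below Control for Ighg2b with vehicle (means 0.295 against 4.58 CPM) and Ighg2c with LPS (0.199 against 5.81 CPM). Both genes overlapped in the other treatment. Iglc2, Ighg2b and Ighg2c were named after their values were seen. Over all tested genes, 6.76% had every Runx1KO library below every Control library with LPS and 7.82% with vehicle. Jchain and Ighg1 overlapped in both treatments. Ighg3, untested, had more counts in Runx1KO than in Control (16 against 7 with LPS, 7 against 3 with vehicle). LPS against vehicle called 0 of the 70 genes by edgeR in either genotype. At an unadjusted p under 0.05, 9 passed in Runx1KO and 1 in Control, beside 5.23% and 0.604% of all genes. DESeq2 called Ighg2c lower in Runx1KO (13 counts with LPS against 402 with vehicle), the only 1 of the 12917 genes it called there. Ighg2b went the other way in Runx1KO (301 counts against 22) and was not called.

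**Figure D5:**
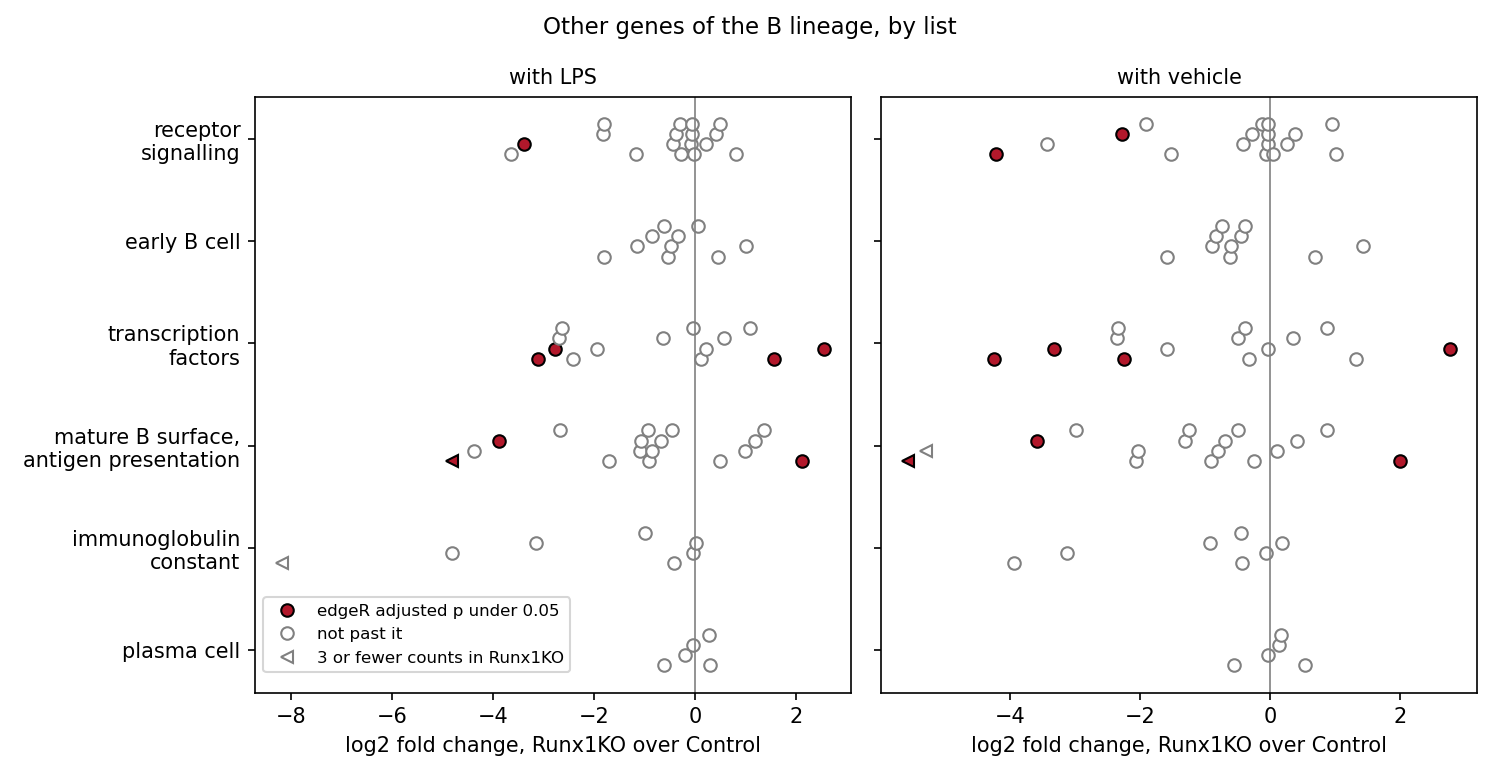
Log2 fold change of Runx1KO over Control for the 70 tested genes of 6 other B lineage groups (rows), with LPS (left) and with vehicle (right); filled symbols have an edgeR adjusted p under 0.05, and triangles are fitted values of genes with 3 or fewer counts in Runx1KO, which are no bounds. Called genes lie in the receptor signalling, transcription factor and surface groups, with Foxo1 (2.55 and 2.77) and Ralgps2 (2.11 and 1.99) on the right of 0 in both panels.

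Markers of other cells were read in the same libraries. Those of T and NK cells summed to 5.91 to 15.7 CPM in Runx1KO LPS against 39.8 to 55.3 CPM in Control LPS, and to 6.35 to 11.1 CPM in Runx1KO vehicle against 36.6 to 54.7 CPM in Control vehicle libraries. Of the 6 tested genes of that group 1 was called, Cd3d, lower in both treatments, with a mean of 1.62 CPM in Runx1KO LPS against 40.1 CPM in Control LPS, and 2.40 CPM in Runx1KO vehicle against 38.5 CPM in Control vehicle libraries. The lower sum was that of Cd3d: of the 6 tested genes, 5 had a positive log2 fold change with LPS and 4 with vehicle, none of them called. Basophil and mast cell markers summed to 1.26 to 2.92 CPM in Runx1KO LPS against 3.54 to 25.7 CPM in Control LPS, and to 1.20 to 1.98 CPM in Runx1KO vehicle against 5.83 to 25.3 CPM in Control vehicle libraries. Prss34, Mcpt8 and Fcer1a were at 0 in every Runx1KO library, and Control library 2 had the lowest sum of its group, as for the B lineage genes. Megakaryocyte and platelet markers ran the other way, at 27.2 to 43.0 CPM in Runx1KO LPS against 2.33 to 6.67 CPM in Control LPS, and 29.3 to 35.4 CPM in Runx1KO vehicle against 1.52 to 2.90 CPM in Control vehicle libraries.

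Plasmacytoid dendritic markers overlapped, at 28.6 to 44.7 CPM in Runx1KO LPS against 18.4 to 36.1 CPM in Control LPS, and 28.4 to 53.4 CPM in Runx1KO vehicle against 20.9 to 46.2 CPM in Control vehicle libraries. Monocyte and macrophage markers were at 962 to 2950 CPM in Runx1KO LPS against 1580 to 1940 CPM in Control LPS, and 727 to 1380 CPM in Runx1KO vehicle against 1350 to 1720 CPM in Control vehicle libraries. Progenitor markers were at 101 to 151 CPM in Runx1KO LPS against 35.8 to 117 CPM in Control LPS, and 80.4 to 210 CPM in Runx1KO vehicle against 53.5 to 188 CPM in Control vehicle libraries. Erythroid markers were at 195 to 1510 CPM in Runx1KO LPS against 181 to 614 CPM in Control LPS, and 105 to 1350 CPM in Runx1KO vehicle against 142 to 559 CPM in Control vehicle libraries. No monocyte, progenitor, erythroid, plasmacytoid or neutrophil marker was called by edgeR, and none of those markers was at 0 in a whole group. The part of any of these cells in the levels of the B lineage genes was not tested.

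The profile over the 12 libraries, standardised for each gene, was compared between the mean of the 8 tested genes and 10176 other genes whose mean log2 CPM was 0 or more. The smallest root mean square distance was that of Ncam1, a neural cell adhesion molecule, at 0.162, and N4bp3 (0.332), Bcl7a (0.346) and Bach2, a transcriptional repressor expressed in B lineage cells (0.354), were also among the closest. Ncam1 was at 1.46 to 2.92 CPM in Runx1KO LPS against 4.91 to 67.9 CPM in Control LPS, and 0.887 to 2.35 CPM in Runx1KO vehicle against 5.47 to 52.4 CPM in Control vehicle libraries. Bach2 was at 0.539 to 0.899 CPM in Runx1KO LPS against 1.87 to 7.44 CPM in Control LPS, and 0.222 to 1.19 CPM in Runx1KO vehicle against 1.44 to 8.46 CPM in Control vehicle libraries. Among the 8 genes themselves the distance to their mean profile ran from 0.266 for Blnk to 1.05 for Igll1, which stood apart from the others. These distances share libraries and depth and are a description. The mean profile is that of genes chosen as lower in Runx1KO, so genes close to it are lower there by that choice.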

How the data were processed

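The deposited values are whole-number counts of reads per gene, not normalized, in 1 table with 1 column per library. Per the submitters' processing notes, the aligner was STAR 2.6.0a, the build mm9 and the counting tool featureCounts. Per the labels' protocols, column-purified, DNase-treated RNA with spike-ins went into libraries for ultra-low input. Annotation and strand setting are not given in the sources used.

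Columns were matched to samples by title. Genes were filtered with filterByExpr (12917 kept), scaled by TMM (factors 0.699 to 1.20) and tested with edgeR 4.0.16 (quasi-likelihood, 1 model of the 4 groups, Benjamini-Hochberg, threshold 0.05) in R 4.3.3, with the script checked on simulated counts. Standard errors are of the log2 fold change. DESeq2 1.42.0, other scalings, no filter, a library-number block and left-out libraries were alternatives. Profiles used log2 CPM with a prior count of 2. No pair of libraries agreed within sampling noise.

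Same-numbered libraries deviated together in every pair between genotypes within a treatment (correlation of deviations from the group means 0.374 to 0.565) and between LPS and vehicle in Control (0.394 to 0.667), but not in every pair of Runx1KO (0.00575 to 0.537). The pairing is thus from the data and not from a label.

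The members and lists were chosen with earlier results of these data known. Named genes were the 9 members, up to 4 called genes of the other lists by size per contrast and direction, always Ighm, Igkc, Cd74 and Foxo1, the sums of marker lists with markers at 0, and the most alike profiles. Some genes that this rule names are not reported here. Promoter windows came from RefSeq on GRCm38.p6 and exon overlaps from GENCODE on GRCm38, used for names only because the counts are on mm9.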

Additional observations from a re-analysis of the deposited data

How the results depend on the processing

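For the other B lineage genes called in Runx1KO against Control, the count called lower with LPS was 5 by edgeR, 14 by DESeq2, 13 with the library number as a replicate block and 9 with no filter on low counts, where all genes gave 74, 226, 185 and 108 in that order. With vehicle it was 7 by edgeR, 14 by DESeq2 and 13 with the replicate block, where all genes gave 78, 228 and 201. Called higher was 1 under library size alone in each treatment, beside 3 with LPS and 2 with vehicle. The cause of these shifts was not tested, apart from the larger number of genes in the fit without the filter. The block changed no call of the 9 genes under LPS, where 0 passed, and among the genes named here it added those of Ets1, Bach2 and Ighg2c with LPS and of Bach2 with vehicle.

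Over fits that left out 1 library, or all 4 of 1 number, counts ranged over 0 to 5 lower and 0 to 3 higher with LPS and 0 to 8 lower and 0 to 2 higher with vehicle. The zeros came from fits without a number, which keep 2 libraries a group. The number of B lineage genes with a negative log2 fold change ranged over 6 to 9 with LPS and 7 to 9 with vehicle, and the log2 ratio of their sum over -1.46 to -0.75 with LPS and -1.65 to -1.12 with vehicle. No alternative turned the direction of a called gene, and 0 of the 9 genes passed under LPS in any. Depth limits Pax5 (64 counts over 12 libraries), Cd22 (135) and Ms4a1 (201) most.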
